A study of Mus musculus with 22 samples.

Results

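The cytosolic ribosomal protein genes are the genes for the proteins of the small and the large subunit of the ribosome of the cytoplasm. They were taken from the gene symbols: every symbol made of Rpl or Rps and a number, with or without an added letter, and Rpsa, Rplp0, Rplp1 and Rplp2, leaving out symbols marked as pseudogenes, the Rps6k kinases and the mitochondrial ribosomal proteins. This gave 88 of 41456 gene IDs, 36 of the small subunit (Rpsa included) and 52 of the large. The rule used no measured value. The annotation lists 5 of the 88 as pseudogenes (Rps3a2, Rps3a3, Rps4l, Rps12l1 and Rpl6l). RNA came from the hypothalamus of C57BL/6J mice, and polyadenylated RNA was sequenced. PWScrm+/p− mice lack the paternal copy of the Snord116 cluster of small nucleolar RNAs, an imprinted locus, and are called mutant. PWScrm+/p+ mice without the deletion are called control. Both genotypes were sampled at ZT0 (lights on, 3 mice each), at ZT6 (6 h later, 4 each) and at the same ZT6 when kept awake for 6 h (sleep deprivation, SD, 4 each), which gave 22 libraries. The labels give neither sex nor age. Where nothing says that replicates were prepared separately, p-values measure the spread between these libraries only, part of which may be technical.

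Ribosomal proteins are made in near-equal amounts, since a finished ribosome holds nearly all of them in equal number. Their messenger RNAs are short, abundant and long-lived. Most begin with a C followed by a run of pyrimidines (C or T in the DNA), the 5′ terminal oligopyrimidine (TOP) motif, through which the kinase mTOR and the protein LARP1 control their translation. Control of this kind acts on translation and need not change the messenger RNA level, which is the quantity measured here. Mammalian genomes hold many processed copies of these genes, and a read from such a near-identical sequence can be counted on the gene or on its copy.

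The start of some of these genes shows a run of this kind. Windows of 30 bases, 15 before the annotated start and 15 from it, are given for 9 members that the results below return to. All 9 hold such a run and do not stand for the members as a whole. Among others taken up below, Rplp0, Rpl41, Rpl4, Rpl37, Rpl11, Rpl5, Rpl10, Rps25 and Rpsa hold none near the start. Capitals mark the run of C or T that follows a C near the start. The sequences are from the RefSeq promoter table (GRCm38.p6), which holds 63 of the 88 members.
Rps6 (chr4:86857353-86857382, minus strand): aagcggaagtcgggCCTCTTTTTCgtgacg
Rps27 (chr3:90213634-90213663, minus strand): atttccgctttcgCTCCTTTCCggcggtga
Rpl38 (chr11:114668565-114668594, plus strand): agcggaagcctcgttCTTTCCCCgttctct
Rplp2 (chr7:141447636-141447665, plus strand): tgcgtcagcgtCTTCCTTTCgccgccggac
Rpl15 (chr14:18270972-18271001, minus strand): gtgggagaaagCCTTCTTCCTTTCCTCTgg
Rpl14 (chr9:120571502-120571531, plus strand): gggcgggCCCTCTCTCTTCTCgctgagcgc
Rps26 (chr10:128626492-128626521, minus strand): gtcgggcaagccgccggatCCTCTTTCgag
Rpl22l1 (chr3:28805493-28805522, plus strand): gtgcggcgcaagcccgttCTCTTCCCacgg
Rps2 (chr17:24720048-24720077, plus strand): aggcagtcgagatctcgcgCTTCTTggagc
In Rpl38 the run opens at the annotated start itself, while in Rps6, Rps27, Rplp2, Rpl15 and Rpl14 it opens before it and in Rps26, Rpl22l1 and Rps2 after it. A C at the start base followed by 4 or more C or T, on the strand of the gene, stood in 13 of the 63 members (20.6%) and in 2.97% of 26962 other genes. Within 10 bases of the start such a run was found in 38 of 63 members (60.3%) and in 32.5% of the other genes. With at least 7 C or T after the C, the shares were 33.3% and 8.38%. Annotated starts can lie some bases from the true ones, and a match describes these letters only.

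Of the 22 libraries, 21 held 3120328 to 46965594 counts and mutant ZT6 replicate 2 held 7348. The 17 rows for Snord116 held counts in 8 of 11 control libraries and 0 counts in the 11 mutant ones, and polyadenylated RNA captures small nucleolar RNAs poorly. All 3 libraries labelled mutant ZT0, and replicate 3 of those labelled mutant ZT6, had few neural transcripts. Summed over 10 neuron markers they held 18 to 182 CPM (counts scaled to a total of 1000000, after TMM scaling), against 3294 to 4778 CPM in the 17 remaining deep libraries. Summed over 8 fibroblast markers they held 21178 to 50212 CPM against 47.5 to 371. Their labelled tissue is thus not borne out by its defining markers. States and genotypes were therefore compared in the 17 remaining libraries, and ZT0 between genotypes in all 22. The numbers after S in the sample titles fall into runs of 1 to 4, 5 to 18 and 43 to 46, called index sets 1, 2 and 3 here; the labels do not say what they stand for.

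Most members were well expressed. In the 17 libraries 81 of 88 had a mean of at least 1 CPM and 85 passed the filter on low counts. The 7 under 1 CPM include paralogs known from other tissues: the testis genes Rpl10l (0 counts in all 22 libraries) and Rpl39l (0 to 7 counts), and the muscle gene Rpl3l (0 to 19 counts). The others are Rpl6l (0 to 5 counts), Rps3a2 (0 to 21), Rps3a3 (0 to 12) and Rps12 (0 to 16). Rps12 encodes a core small subunit protein. Rps12-ps3 and Rps12l1 match its coding part in full, and 86.1% of the counts of that family were on rows outside the member list.

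By level, Rpl3, a protein next to the catalytic centre, led with 757 ± 196 CPM (SD, n = 17), followed by Rpl4 with 589 ± 134 and Rps24 with 517 ± 318. Levels between genes are comparable only per length, and the length used here was that of the coding part. Counts are of whole transcripts, so untranslated parts raise such a value, above all where they are long beside the coding part. Values per transcript length are not given here. Per kilobase of coding part, Rpl41, the shortest of the ribosomal proteins with a coding part of 75 bases, was highest at 5002 CPM. Rps29, a small zinc-binding protein, followed at 1393 CPM per kilobase. Among the lower levels per kilobase were those of Rps25 (34.9 CPM), Rpl12 (38.3 CPM), Rpl5 (41.5 CPM) and Rpsa (44.3 CPM).

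Some of these low rows share their sequence with copies. A copy was any other annotated gene matching at least 80% of a member's coding part at 95% identity or more. There were 423 copies, for 77 of the 88 members. Members that share copies were joined, which gave 84 families, 81 of them at 1 CPM or more. In 24 families over 10% of the counts stood on copies, and in 9 over 50%. For Rpl12 the share was 92.0%, most of it on Gm10275, and for Rpl5, which with Rpl11 binds the p53 regulator Mdm2, 91.9%, most of it on Gm15500. Both copies match the coding part without a difference. For Rpl10, the last large subunit protein to join, 69.1% of the counts were on copies, chiefly Rpl10-ps3. Whether such counts are reads of the gene or of the copy was not tested. The tests of states, genotypes and index sets below were therefore also run on members summed with their copies. Single-library levels and counts of groups that do not overlap are of the member's own row unless families or copies are named.

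The family rose and fell as a block from library to library. As a share of all counts the members made up 1.10% to 3.15% in the 17 libraries (exact 95% binomial intervals 1.09% to 1.10% and 3.15% to 3.16%, counting error only). At ZT0 the control libraries summed to 14229, 12066 and 12148 CPM. At ZT6 they summed to 16352, 34640.5, 10199 and 16216 CPM. After SD they summed to 17548, 14785, 16073 and 25852 CPM. Both the highest and the lowest of the 17 libraries, control ZT6 replicates 2 and 3, were thus in the same group. The 2 mutant ZT6 libraries had 17097 and 16128 CPM, and the mutant SD libraries 14906, 13205, 13365 and 15412 CPM. The 4 libraries with few neural transcripts stood above all of these, at 81391, 57869, 51320 and 57664 CPM.

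**Figure D1:**
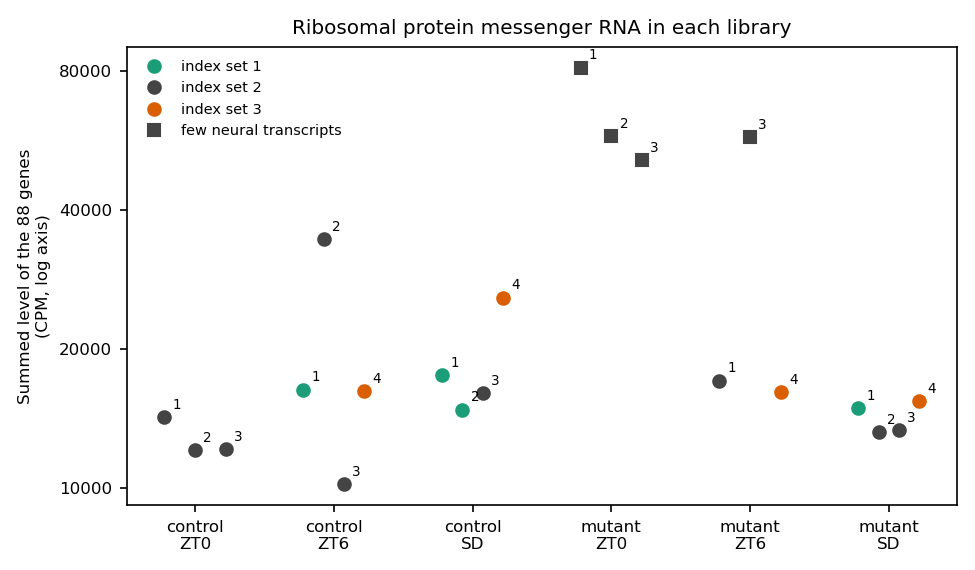
Summed level of the 88 genes in each library, in CPM on a log axis, by group; each point is 1 library with its replicate number, its colour the index set, and squares the 4 libraries with few neural transcripts (mutant ZT6 replicate 2 is not drawn). Control ZT6 replicates 2 (34640.5 CPM) and 3 (10199 CPM) span the range of the 17 round points, and the squares lie between 51320 and 81391 CPM.

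Nearly all members took part in this. Among the 81 families at 1 CPM or more, 79 stood above their own median of the 17 libraries in control ZT6 replicate 2, 78 in control SD replicate 4 and 75 in control SD replicate 1. In control ZT6 replicate 3, 0 of 81 did, and in control ZT0 replicates 2 and 3, 4 did in each. Control ZT6 replicate 2 was the highest library for 59 families and control SD replicate 4 for 20, and control ZT6 replicate 3 was the lowest for 50. The SD of a family's log2 level over the 17 libraries had a median of 0.47, and of 0.25 once each library's median was subtracted.

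**Figure D2:**
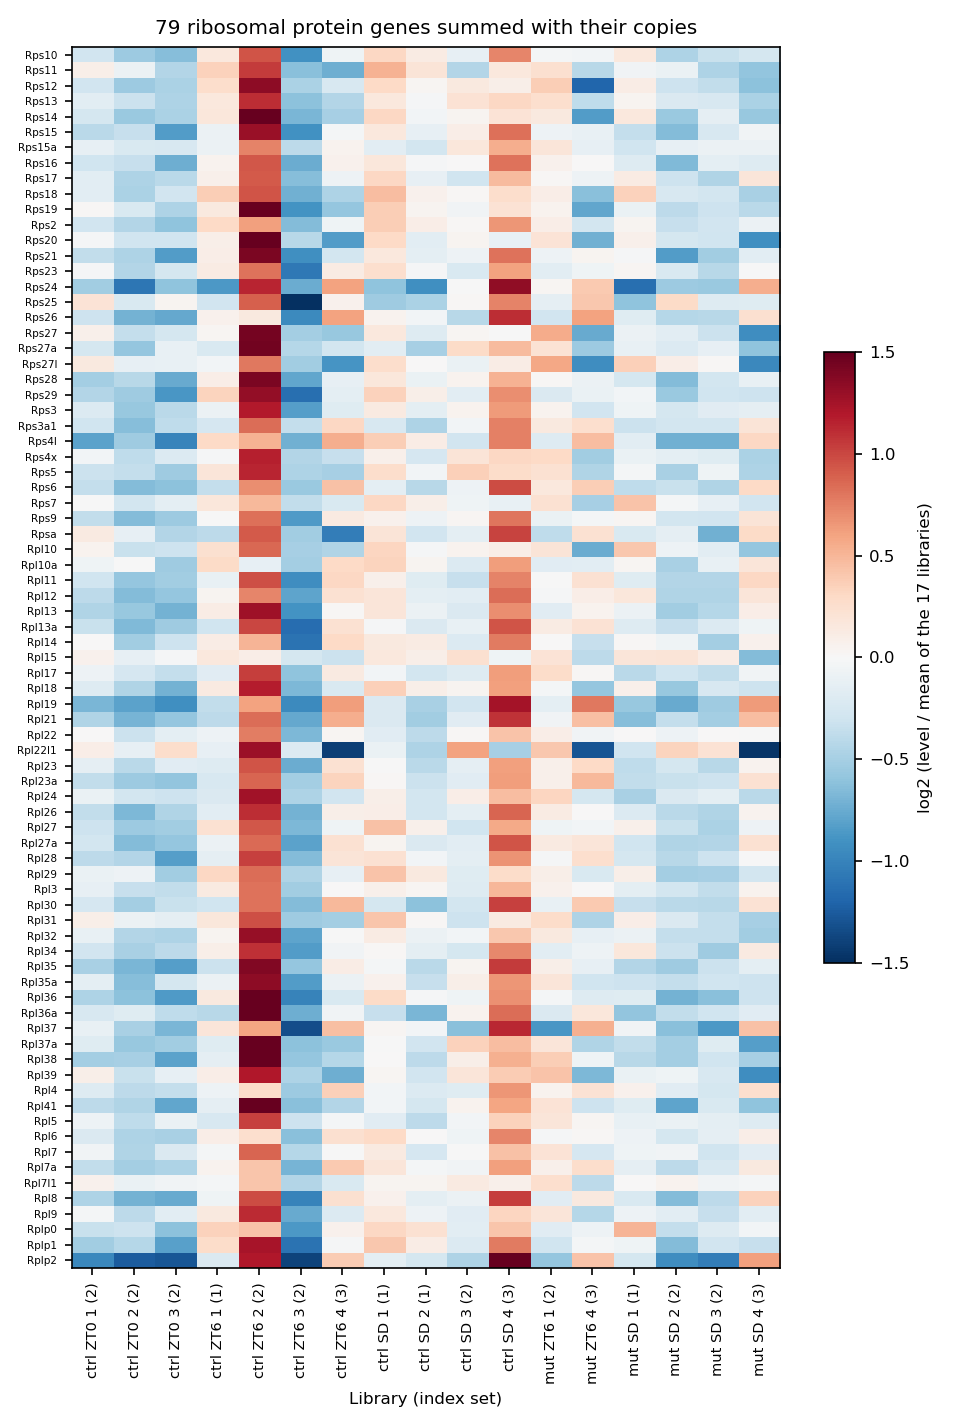
Each row is a member summed with its copies (79 rows) and each column 1 of 17 libraries with its index set in brackets; colour is the log2 ratio of the level to the row's mean. The column of control ZT6 replicate 2 is red in nearly every row and that of control ZT6 replicate 3 blue, while Rpl22l1 is darkest blue in the libraries of index set 3.

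Rpl41 shows the pattern. It stood at 291, 273 and 219 CPM in control ZT0, at 344, 1232, 246 and 277 CPM in control ZT6, and at 374, 308, 397 and 567 CPM in control SD. In mutant libraries it stood at 421 and 308 CPM at ZT6 and at 337, 216, 319 and 251 CPM after SD. A single control ZT6 library was over 2-fold above every other, and the groups overlapped. Rpl38, which the mouse needs for its axial skeleton, behaved alike, at 161, 565, 114 and 132 CPM in control ZT6 and 101 to 125 CPM in control ZT0. Rpl4 did not: its highest library was control SD replicate 4 (930.5 CPM), above 714 CPM in control ZT6 replicate 2.

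Some other gene groups moved in the same 2 libraries, and some did not. Nuclear-encoded respiratory chain genes (76) summed to 17656 CPM in control ZT6 replicate 2 and 14322 CPM in control SD replicate 4, against 7055 to 11554 CPM in the other 15. Mitochondrial ribosomal protein genes (78) summed to 3742 and 3534 CPM there, against 1821 to 2700. Protein-coding genes with a coding part under 500 bases, the members and their copies left out, summed to 99152 and 99557 CPM, against 59115 to 84404. Short genes of the 2 lists above were not taken out of this sum, so it is not a separate group. Other TOP messenger RNAs summed to 3025 and 3274 CPM, against 1479 to 2313. Translation elongation factors summed to 5951 and 7271 CPM, against 3980 to 7018. Genes of RNA polymerase I and ribosome assembly summed to 2642 and 3949 CPM, against 2119 to 3933. Genes of mTOR and LARP1 control summed to 1357 and 1375 CPM, against 1385 to 1630. Blood markers (5 genes) summed to 1019 and 1422 CPM in these 2 libraries, within the 255 to 1891 CPM of the others. Neuron markers were at 3294 CPM in control ZT6 replicate 2, the lowest of the 17, and 4369 CPM in control SD replicate 4. The part of transcript length, RNA quality or tissue makeup in the member levels was not tested. In tissue RNA, fewer cells of a type and less RNA per cell cannot be told apart.

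Sleep deprivation was compared with undisturbed ZT6 mice at the same clock time. In control mice 28 of the 85 tested members had a higher and 57 a lower estimate, with a median log2 difference of −0.08, against −0.02 over all 21346 genes tested. By edgeR's quasi-likelihood test with Benjamini-Hochberg adjustment over all genes, 0 of 85 members were called (0% of all genes), and 0 members against 1318 genes had an unadjusted p under 0.05. DESeq2 called 0 members and 18 genes. The median turned to 0.42 (83 of 85 higher) without control ZT6 replicate 2 and was −0.27 without control SD replicate 4. Within index sets, which hold 1 or 2 libraries a group, the medians over 81 families were −0.02, −0.21 and 0.67 in sets 1, 2 and 3.

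Rpl10a and Rpl6 were among the members with the smallest p after SD in control mice. Rpl10a stood at 53.1, 38.9, 37.4 and 47.9 CPM at ZT6 and at 68.3, 50.3, 52.9 and 52.6 CPM after SD. It differed by 0.32 ± 0.23 on the log2 scale (SE, adjusted p = 0.982 by edgeR) and Rpl6 by 0.23 ± 0.22 (adjusted p = 1.00). The SD and ZT6 values overlapped for every tested member: in 0 of 85 did the groups separate in either direction, against 1.02% of all genes higher and 0.895% lower. Rps6, whose protein S6 kinases phosphorylate when mTOR is active, stood at 310, 799, 222 and 187 CPM at ZT6 and 305, 278, 329 and 512 CPM after SD. With copies summed, Rps6 stood at 384, 800, 334 and 670 CPM at ZT6 and 444, 370, 467 and 969 CPM after SD.

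In mutant mice the SD comparison rests on 2 libraries at ZT6. There 13 members had a higher and 72 a lower estimate after SD (median −0.22, all genes −0.01). By edgeR 0 members (0% of genes) were called and 1, Rps12 with 0 to 16 counts in a library, had an unadjusted p under 0.05, against 461 genes. DESeq2 called 0 members and 17 genes. Rps7, which binds Mdm2, stood at 125 and 86.0 CPM at ZT6 and at 204, 153, 142 and 127 CPM after SD (log2 difference 0.55 ± 0.31, adjusted p = 1.00). Rpl11 stood at 160 and 315 CPM at ZT6 and at 144, 116, 133 and 209 CPM after SD (−0.69 ± 0.40, adjusted p = 1.00). With copies summed, Rps7 was −0.04 once index set was a covariate. The mutant medians within index sets 2 and 3 were −0.40 and −0.03. With all 22 libraries in 1 fit, where a library with few neural transcripts enters the mutant ZT6 group, the median was −0.87.

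Averaged over genotypes, 18 members had a higher and 67 a lower estimate after SD (median −0.15, all genes −0.02). By edgeR 0 members were called, with 0.00468% of genes called (1 gene), and 1 member against 1040 genes had an unadjusted p under 0.05. DESeq2 called 0 members and 37 genes. With copies summed it was 0 of 82, against 0.00471% of genes. The median was 0.11 without control ZT6 replicate 2. The difference between the genotypes' responses had a median of −0.16 over the members (0.03 over all genes). None of the 85 members was called in it by edgeR (0% of genes), with 1 member and 530 genes at an unadjusted p under 0.05. With DESeq2, 0 members and 8 genes were called. That median was −0.64 without control ZT6 replicate 2 and 0.06 without control SD replicate 4. Rpl7a (−0.39 ± 0.31) and Rps26 (−0.65 ± 0.55) had the smallest p after Rps12, both at an adjusted p of 1.00 by edgeR.

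Over the first 6 h of light in control mice, 82 members had a higher and 3 a lower estimate at ZT6 than at ZT0. The median was 0.58, against 0.09 over all genes. By edgeR 0 of 85 members (0% of genes) were called, while 18 members and 694 of 21346 genes had an unadjusted p under 0.05. DESeq2 called 0 members and 23 genes. Without control ZT6 replicate 2 the median was 0.12 (55 higher, 30 lower), and without control ZT6 replicate 3 it was 0.77. Control ZT0 libraries are all of index set 2, and within that set the median over families was 0.52, from 2 ZT6 libraries (replicates 2 and 3) and 3 ZT0 libraries. The smallest p belonged to Rps4l, a processed copy of the X-linked Rps4x. It stood at 17.7, 21.4 and 15.5 CPM at ZT0 and at 38.7, 45.1, 18.8 and 45.9 CPM at ZT6 (1.04 ± 0.35, adjusted p = 0.960). Rpl35, which lies beside the exit of the peptide tunnel, stood at 48.8, 41.6 and 36.3 CPM and then at 56.6, 153, 45 and 83.5 CPM (1.02 ± 0.35, adjusted p = 0.960). Rpl10a went the other way, from 74.8, 91.7 and 45.5 CPM to 53.1, 38.9, 37.4 and 47.9 CPM (−0.67 ± 0.25, adjusted p = 0.960), but was 0.20 with its copy summed. Only Rps12, at 0 to 0.6 CPM, had groups that did not overlap (1 of 85 members higher and 0 lower, against 1.86% and 2.49% of all genes).

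**Figure D3:**
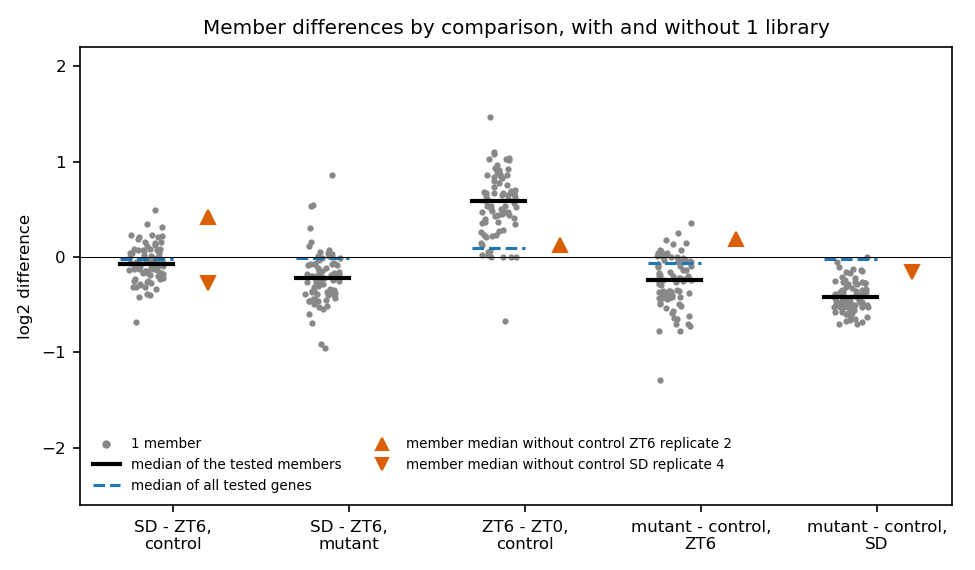
Log2 difference of each member at 1 CPM or more in 5 comparisons (grey points), with the median of the 85 tested members (black), of all tested genes (blue dashes) and of the members without control ZT6 replicate 2 or control SD replicate 4 (orange); Rps12l1 lies above the axis in the ZT6 against ZT0 comparison. In control SD against ZT6 the 2 orange marks stand at 0.42 and −0.27, on opposite sides of 0, while mutant against control after SD lies below 0 with and without the library.

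Between genotypes at ZT6, 2 mutant libraries were compared with 4 control ones. Of the members 17 had a higher and 68 a lower estimate in mutants (median −0.24, all genes −0.06). By edgeR 0 of 85 (0% of genes) were called, with 1 member (Rps12) and 566 genes at an unadjusted p under 0.05. With DESeq2, 0 members and 15 genes were called. Without control ZT6 replicate 2 the median was 0.19, with 74 of 85 higher. Within index sets 2 and 3 it was −0.08 in each. Rpl37, a zinc-binding large subunit protein, stood at 42.2 and 9.7 CPM in mutants and 91.2, 116, 27.9 and 10.6 CPM in controls (−1.29 ± 0.78, adjusted p = 0.999). The low value of each genotype came from index set 3, in which most counts of the pair stood on a copy, as given further on. Rpl18 differed by −0.59 ± 0.40 (adjusted p = 0.999) and was 0.47 with all 22 libraries in 1 fit.

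After SD the 4 mutant libraries were compared with 4 control ones. The estimate was lower in mutants for 84 of 85 members and higher for 1, with a median of −0.42 against −0.02 over all genes. By edgeR 0 of 85 (0% of genes) were called, with 0 members and 631 genes at an unadjusted p under 0.05. DESeq2 called 0 members and 1 gene. The median was −0.16 (69 of 85 lower) without control SD replicate 4. Over the index sets it was −0.11, −0.27 and −0.72 in sets 1, 2 and 3, with 1 or 2 libraries a group in each. All 4 mutant libraries lay below all 4 control libraries for 6 of 85 members (among them Rpl32, Rpl36, Rpl7a, Rps13 and Rps19), against 1.83% of all genes, and above them for 0, against 1.04%.

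The members with the smallest p in that comparison were Rps2, Rplp1 and Rpl6. Rps2, which lies at the entry of the messenger RNA channel, stood at 384, 317, 299 and 442 CPM in controls and 305, 232, 238 and 264 CPM in mutants (−0.50 ± 0.24, adjusted p = 0.999). Rplp1, a protein of the stalk that receives elongation factors, stood at 422, 346, 276 and 550 CPM and 305, 204, 262 and 251 CPM (−0.67 ± 0.36, adjusted p = 0.999). Their groups overlapped by 1 mutant library. Rpl6 differed by −0.40 ± 0.22 (adjusted p = 0.999). Rps19, mutated in the inherited failure of red cell production called Diamond-Blackfan anaemia, stood at 227, 182, 169 and 206 CPM in controls and 164, 134, 141 and 134 CPM in mutants, groups that did not overlap (−0.48, adjusted p = 0.999). In the same comparison the estimate was lower in mutants for all 76 respiratory chain genes (median −0.44, 0 called) and for 71 of the 78 mitochondrial ribosomal protein genes (median −0.33, 0 called). Pituitary markers summed to 24656 CPM in mutant SD replicate 1 and 1232 CPM in mutant SD replicate 4, and without these 2 and control ZT6 replicate 1 the member median was −0.49.

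Averaged over ZT6 and SD, 82 members had a lower and 3 a higher estimate in mutants (median −0.34, all genes −0.05). By edgeR 0 of 85 (0% of genes) were called, with 3 members and 768 genes at an unadjusted p under 0.05. With DESeq2, 0 members and 5 genes were called. Without control ZT6 replicate 2 the median was −0.07. Rpl18 (−0.58 ± 0.26) and Rpl36 (−0.70 ± 0.32) had the smallest p after Rps12, each with an adjusted p of 0.942. The comparisons of genotype at ZT6 and of SD in control share the control ZT6 libraries, and those of genotype after SD and of SD share the SD libraries. Comparisons that share libraries are not independent of each other, and all of them use the same estimate of a gene's spread.

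At ZT0 the libraries labelled mutant are the 3 with few neural and many fibroblast transcripts, so that genotype and tissue makeup cannot be told apart. Members were far higher there. Of the 85 tested, 74 were called higher and 1 lower by edgeR (20.9% and 29.2% of all 20763 genes, 50.1% in either direction), with a median of 2.31 against −0.22 over all genes. Scaling by RLE moved the median of all genes from −0.22 to 0.00 and that of the members to 2.52. Relative to all genes the difference was thus 2.53 under TMM and 2.52 under RLE. Under RLE 77 members were called higher and 1 lower, with 50.4% of all genes called in either direction. The 3 mutant libraries lay above all 3 control ones for 79 members and below for 2 (26.7% and 37.3% of all genes). Over all 4 libraries with few neural transcripts, the level relative to control ZT0 had a median ratio of 4.86 over 81 families and reached 18.6 for Rplp0. In 60 of 81 families the 4 libraries all lay above the 17. The share of all genes that do so was not computed, so this count has no background beside it. In the ZT0 fit, 6 groups share 1 estimate of a gene's spread. Its mutant ZT6 group mixes replicate 3, with few neural transcripts, with replicates 1 and 4 and with replicate 2 of 7348 counts. The SEs and adjusted p-values at ZT0 also carry that mixture and do not measure the spread of the ZT0 libraries alone.

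The largest differences of well expressed members were in Rplp0, Rps27l and Rps2. Rplp0, the base of the elongation factor stalk, stood at 3358, 2493 and 2186 CPM in mutant and 143, 145 and 117 CPM in control ZT0 (4.31 ± 0.84, adjusted p = 0.000490). Its partners in the stalk, Rplp1 (3.05 ± 0.70, adjusted p = 0.00159) and Rplp2 (3.13 ± 0.83, adjusted p = 0.00443), were also among the higher ones. Rps27l, a paralog of Rps27 and a p53 target, stood at 246, 178 and 128 CPM and 13.3, 10.9 and 11 CPM (3.97 ± 0.84, adjusted p = 0.000860). Rps2 stood at 3200.4, 1786 and 1853 CPM and 241, 215 and 193 CPM (3.40 ± 0.65, adjusted p = 0.000417).

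**Figure D4:**
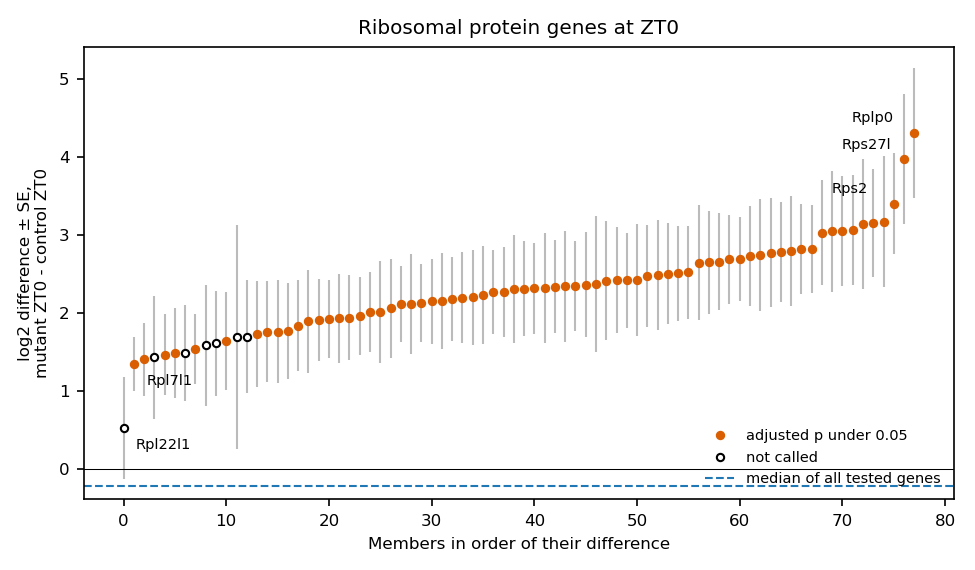
Log2 difference ± SE of mutant against control at ZT0 for 78 members, in order of size, not drawn are Rps12l1, those under 1 CPM in the 17 libraries, the 1 member called lower and 1 other; filled points passed an adjusted p of 0.05. The members drawn lie above the median of all tested genes (dashed, −0.22), with Rpl22l1 lowest, and Rplp0, Rps27l and Rps2 stand at the top.

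Paralogs were also compared by their levels at ZT0. Rps27 and Rps27l have coding parts of 252 bases each, with 60 differences between them (76.2% identity). The pair is printed from GENCODE M21 transcripts, with the differing bases in capitals, to show how far the 2 differ. At this identity neither is a copy of the other by the rule used here.
Rps27: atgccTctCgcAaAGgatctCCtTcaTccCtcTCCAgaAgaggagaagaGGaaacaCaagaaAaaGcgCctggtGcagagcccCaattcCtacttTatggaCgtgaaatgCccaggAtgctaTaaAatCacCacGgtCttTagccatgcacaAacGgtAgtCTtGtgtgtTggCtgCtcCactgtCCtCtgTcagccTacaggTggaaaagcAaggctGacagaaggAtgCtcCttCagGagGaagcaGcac
Rps27l: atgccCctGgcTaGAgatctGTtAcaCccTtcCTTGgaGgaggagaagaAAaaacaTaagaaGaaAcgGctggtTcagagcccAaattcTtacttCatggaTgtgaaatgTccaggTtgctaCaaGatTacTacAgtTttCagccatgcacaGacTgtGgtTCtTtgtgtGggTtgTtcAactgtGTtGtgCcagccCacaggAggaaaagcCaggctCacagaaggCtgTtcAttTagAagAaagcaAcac
Rps27 itself stood at 703, 511 and 367 CPM in mutant ZT0 and at 196, 143 and 150 CPM in control ZT0, and its difference (1.69 ± 1.43, adjusted p = 0.339) was not called. In the libraries of index set 3 its own row held 0 to 84.9 CPM, and with copies summed the difference was 1.82 ± 0.67 (adjusted p = 0.0302).

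Rpl39 lines the peptide tunnel, and Rpl39l is a paralog known from testis. Their coding parts of 153 bases differ at 23 bases (85.0% identity), shown in capitals because Rpl39l was counted mainly in the libraries with few neural transcripts.
Rpl39: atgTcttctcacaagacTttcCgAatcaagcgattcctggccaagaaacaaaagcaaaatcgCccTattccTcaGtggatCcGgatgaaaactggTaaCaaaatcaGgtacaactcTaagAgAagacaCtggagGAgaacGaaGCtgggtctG
Rpl39l: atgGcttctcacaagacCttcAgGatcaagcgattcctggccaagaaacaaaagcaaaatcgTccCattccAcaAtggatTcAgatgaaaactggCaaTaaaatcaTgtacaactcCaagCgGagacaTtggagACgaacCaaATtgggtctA
Rpl39l was counted 29 to 441 times in the 4 libraries with few neural transcripts and 0 to 7 times in the 17 others. It stood at 42.0, 8.0 and 11.1 CPM in mutant ZT0, where Rpl39 stood at 621, 545 and 285 CPM, against 104, 77.7 and 89.8 CPM of Rpl39 in control ZT0. Rpl22 and its paralog Rpl22l1, which bind the same RNAs, stood at log2 differences of 2.52 ± 0.60 (adjusted p = 0.00207) and 0.53 ± 0.65 (adjusted p = 0.521). Rpl7l1, a nucleolar relative of Rpl7, differed by 1.34 ± 0.35 (adjusted p = 0.00349) and Rpl7 by 2.31 ± 0.69 (adjusted p = 0.00964). Whether 2 paralogs of a pair differ from each other was not tested.

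Members that did not pass the test at ZT0 were Rpl22l1, Rps27, Rpl37, Rpl9, Rpl10, Rpl14, Rpl21, Rpl3l, Rps3a2 and Rps12. With copies summed, 80 of 83 were called higher and 1 lower (21.1% and 29.3% of 20668 genes), and only Rpl22l1 and Rpl3l did not pass. Leaving out 1 library at a time left 62 to 73 members called, with 40.6% to 45.8% of all genes called, and a median of 2.05 to 2.42. Rps12l1 was called (adjusted p = 0.0486) on 273 CPM in mutant ZT0 replicate 1, with 0 CPM in replicates 2 and 3, so that 1 library decides it.

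Among fixed members, the ribosome assembly proteins Rpl5 (1.73 ± 0.68, adjusted p = 0.0411) and Rpl11 (1.92 ± 0.51, adjusted p = 0.00410) were higher at ZT0. So were Rpl3 (1.40 ± 0.47, adjusted p = 0.0189), Rps6 (1.76 ± 0.65, adjusted p = 0.0297), Rps14 (2.27 ± 0.58, adjusted p = 0.00328) and Rps19 (2.64 ± 0.74, adjusted p = 0.00611). Rpsa, known also as a laminin receptor precursor, differed by 1.84 ± 0.58 (adjusted p = 0.0137). Rps4x differed by 2.34 ± 0.71 (adjusted p = 0.0104) and its processed copy Rps4l by 1.53 ± 0.45 (adjusted p = 0.00854). Rps25 (1.48 ± 0.58, adjusted p = 0.0390), Rps29 (1.76 ± 0.65, adjusted p = 0.0311), Rpl38 (1.91 ± 0.52, adjusted p = 0.00532) and Rpl41 (2.73 ± 0.64, adjusted p = 0.00183) were higher as well.

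Other genes of translation were read from lists chosen beside the members. Their counts at ZT0 stand against 20.9% of all genes called higher and 29.2% called lower, and their medians against −0.22. Of 9 elongation factors 7 were called higher and 1 lower, with Eef1a1 at 2.29 ± 0.62 (adjusted p = 0.00507) and Eef2 at 2.09 ± 0.63 (adjusted p = 0.00956). Of 36 initiation factors 23 were called higher and 0 lower (median 1.47). Of 10 other TOP messenger RNAs 7 were called higher and 0 lower, among them Tpt1 at 2.68 ± 0.64 (adjusted p = 0.00204). Of 54 genes of RNA polymerase I and ribosome assembly 27 were called higher and 2 lower (median 1.17). Of the 4 ribosomal proteins outside the name rule, 3 were called higher, including Rack1 (3.38 ± 0.62, adjusted p = 0.000308), while Fau (1.77 ± 0.80, adjusted p = 0.0721) did not pass. Of 78 mitochondrial ribosomal proteins 18 were called higher and 0 lower (median 0.48, 64 with a higher estimate), a share of higher calls near that of all genes. Of 76 respiratory chain genes 5 were called higher and 1 lower (median 0.16, 48 with a higher estimate). Of 31 genes of mTOR and LARP1 control 6 were called higher and 4 lower (median 0.00), with Larp1 at 0.76 ± 0.32 (adjusted p = 0.0577) and Mtor at −0.59 ± 0.29 (adjusted p = 0.0896).

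After SD in control mice none of these lists held a called gene by edgeR. The estimate was higher for 8 of the 9 elongation factors (median 0.12), 29 of the 36 initiation factors (median 0.08) and 6 of the 10 other TOP messenger RNAs (median 0.02). Ddit4, an inhibitor of mTOR that rises under stress, had a log2 difference of 0.80 ± 0.24 (adjusted p = 0.699) in control and 0.62 ± 0.30 (adjusted p = 1.00) in mutant mice. Eef1a1 differed by 0.08 ± 0.15 in control mice, Tpt1 by 0.14 ± 0.25, Rack1 by 0.01 ± 0.27 and Larp1 by 0.05 ± 0.18 (each with an adjusted p of 1.00 by edgeR).

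Single members were called between the index sets. With group held fixed, index set 3 differed from set 2 for 9 of 85 members, 3 higher and 6 lower (22.4% of all genes called, 12.7% higher and 9.75% lower). Rpl22l1 was lowest in set 3, at 39.4, 74.5, 39.9 and 37.8 CPM in its 4 libraries, against 137 ± 49.5 CPM in set 2 (SD, n = 9) and 88.9 ± 10.6 in set 1 (n = 4). The log2 difference was −1.66 ± 0.27 (adjusted p = 0.000679) for set 3 and −0.83 ± 0.26 (adjusted p = 0.0414) for set 1, the single member called in set 1 against 2 (18.3% of all genes called, 10.9% higher and 7.43% lower). Rps26, which touches the messenger RNA at its exit, was higher in set 3: 151 ± 38.6 CPM (n = 4) against 70.1 ± 16.3 in set 2 (n = 9), a difference of 1.01 ± 0.19 (adjusted p = 0.00222). Rps4l (0.84 ± 0.20, adjusted p = 0.00913) and Rpl4 (0.52 ± 0.16, adjusted p = 0.0306) were higher as well. Rps27l (−0.88 ± 0.30, adjusted p = 0.0478) and Rpl15 (−0.57 ± 0.13, adjusted p = 0.00753) were lower. The count of 9 became 40 of 85 without control ZT6 replicate 2 (30.1% of all genes called) and 17 by DESeq2 (28.2%). That of set 1 became 10 (24.6%) and 4 (24%).

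The calls of Rps27, Rpl14 and Rpl37 in set 3 changed when copies were summed. Rps27 fell by 3.49 ± 0.94 on the log2 scale (adjusted p = 0.0169). It stood at 84.9, 4.3, 0 and 26.8 CPM in set 3, while Rps27rt, a copy whose coding part is the same base for base, took 34.8% to 100% of the counts of the pair there, 1.0% to 9.3% in set 2 and 0% to 0.4% in set 1. Summed with its copies, Rps27 was at 134 ± 40.6 CPM in set 3 and 220 ± 121 in set 2 (−0.84, adjusted p = 0.0643). Rpl14 fell by 1.16 ± 0.39 (adjusted p = 0.0473) on its own row and stood at 0.37 ± 0.25 (adjusted p = 0.322) with Rpl14-ps1, which took 70.8% to 86.9% of the pair in set 3, 31.1% to 54.1% in set 2 and 25.0% to 28.9% in set 1.

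Rpl37 turned its sign. Alone it was lower in set 3 (−1.5 ± 0.41, adjusted p = 0.0178) and with Rpl37rt it was higher (1.22 ± 0.28, adjusted p = 0.00737). Rpl37rt took 78.5% to 92.1% of the pair in set 3, 3.8% to 17.2% in set 2, 3.7% to 6.8% in set 1, and 13.4% to 51.6% in the 4 libraries with few neural transcripts. The coding parts differ at 1 base in 291, G249A, counted from the first base of the start codon with the base of Rpl37 first. Bases 229 to 269 show it, with the differing base in capitals, since this base is what a read in the coding part has to tell the rows apart.
Rpl37: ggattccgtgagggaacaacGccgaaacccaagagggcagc
Rpl37rt: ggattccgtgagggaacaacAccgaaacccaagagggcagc

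**Figure D5:**
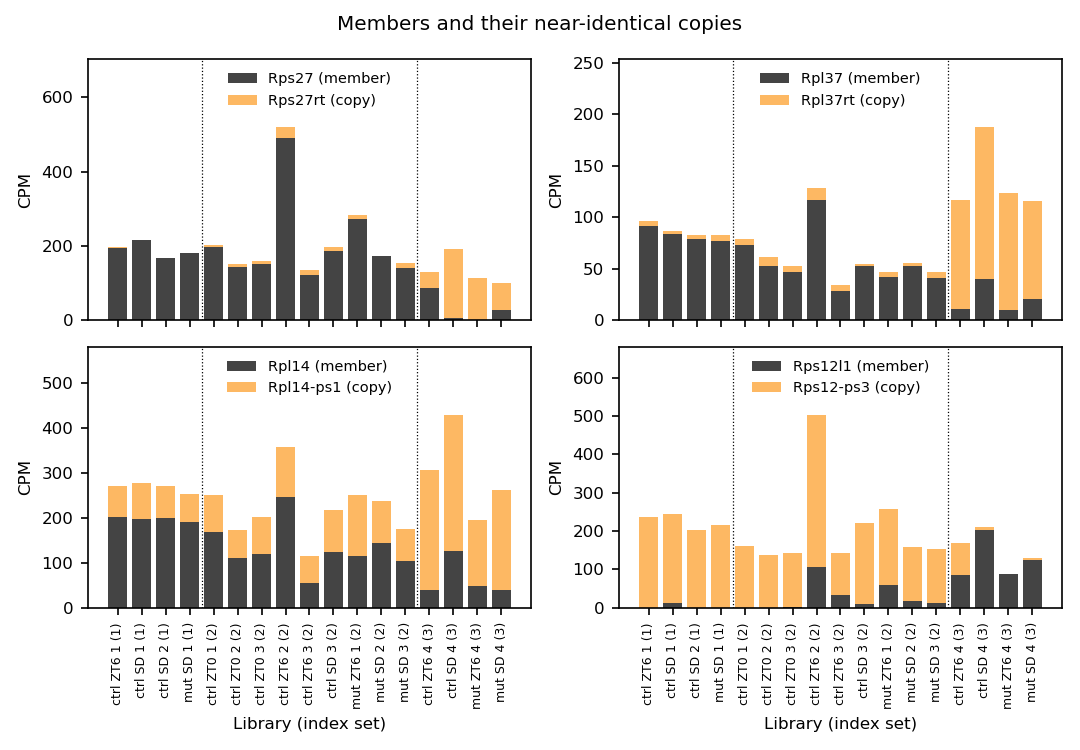
Levels in CPM of 4 members (dark) stacked with 1 near-identical copy each (light) in the 17 libraries, ordered by index set (in brackets, dotted lines between sets). In the 4 libraries of index set 3, at the right of each panel, the share of the copy is 78.5% to 92.1% for Rpl37rt and 70.8% to 86.9% for Rpl14-ps1, while for the pair of Rps12l1 and Rps12-ps3 the share of the member Rps12l1 is 50.7% to 100% there.

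Rps12l1, a member by its name and a processed pseudogene by annotation, shows the reverse exchange. Its share of the pair with Rps12-ps3 was 50.7% to 100% in set 3, 0% to 22.8% in set 2 and 0% to 5.3% in set 1. With copies summed, 11 of 82 members differed between sets 3 and 2, 8 higher (Rpl10a, Rpl19, Rpl21, Rpl37, Rpl4, Rplp2, Rps26 and Rps4l) and 3 lower (Rpl15, Rpl22l1 and Rps27l), against 12.2% and 10.3% of all genes. Rpl19 was then at 882 ± 190 CPM in set 3 and 368 ± 155 in set 2, a difference of 1.09 ± 0.23 (adjusted p = 0.00423). Its own row stood at 578 ± 123 CPM in set 3 and 368 ± 155 in set 2 and was not called. The copy Rpl19-ps11 stood at 303 CPM in set 3 and 0.05 CPM in set 2. Between sets 1 and 2, Rpl22l1 (−0.85 ± 0.25, adjusted p = 0.0318) and Rps24 (−1.0 ± 0.31, adjusted p = 0.0394) were lower (8.46% of genes lower, 9.69% higher). Outside the members, Fau, the source of a small subunit protein, was lower in set 3 (−1.71 ± 0.39, adjusted p = 0.00652) and Eef2 higher (0.67 ± 0.13, adjusted p = 0.00225).

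The balance of the subunits differed by index set too. The summed level of large over small subunit members was 1.60 to 1.77 in the 4 libraries of set 3 and 1.41 to 1.56 in the other 13. With copies summed the ranges were 1.76 to 1.91 and 1.53 to 1.69, which do not overlap either. No reason for the sets was given by the labels, and the part of library handling or sequencing in these values was not tested.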

How the data were processed

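Counts per gene were taken from the deposited table. Per the labels' protocols, the authors prepared TruSeq polyA libraries, sequenced them on a NovaSeq, trimmed reads with Trimmomatic 0.38, quantified transcripts with kallisto 0.44.0 on an Ensembl 79 index, summed them to genes with tximport, and tested with DESeq2, keeping genes past 0.05 (adjusted p) that changed over 2-fold. The deposited values are expected counts (kallisto estimated counts, whole numbers, not normalised), in 41461 lines, of which 5 repeating an ID were dropped. Coordinates are from GENCODE M21 (GRCm38), which holds 41193 of the IDs.

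The test was edgeR 4.0.16 in R 4.3.3 (TMM, filterByExpr at 10 counts and 15 in total, quasi-likelihood F test, two-sided, Benjamini-Hochberg over all genes, called at an adjusted p under 0.05). States and genotypes were fitted in 17 libraries of 5 groups (21346 genes), index sets with group as a covariate in the same 17, and ZT0 in all 22 libraries (20763 genes). The SE is the absolute log2 difference over the square root of F. Levels are TMM-scaled CPM with the factors of all 22 libraries. These differ from those of the 17 by at most 4.12% after the geometric mean of their ratios is divided out. Copies were found with blastn 2.17.0 (95% identity over 80% of the coding part). Depth was 3120328 to 46965594 counts in 21 libraries and 7348 in the other; intervals hold for counting error alone, as reads carry no molecular identifiers.

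The members, the lists and the tests were chosen with earlier results of these data known. Named were the called members of a comparison (of over 8, the 4 largest each way and any of the rarer sign), or the 3 smallest p where none was called, the extremes of level per coding length, and fixed members and list genes. The copies and all other members were named after their values were seen. Alternatives were RLE factors, DESeq2 1.42.0, no filter, scaling without the members, all 22 or 21 libraries, index set as a covariate, no libraries with pituitary transcripts, only the compared groups, the 2-fold limit and leaving out each library. Summing members with copies, with and without that covariate, was chosen after seeing the data. The script was tested on simulated data with known changes. Some members counted in the totals are not reported by name here and are left out of the figures that name members.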

Additional observations from a re-analysis of the deposited data

Results flagged for a closer look

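In groups of 4 libraries (control ZT6, control SD and mutant SD), 79 members and their summed level with and without copies were tested for a library standing apart from the other 3 by Dixon's criterion at its 95% critical value. Of 243 such groups it marked 27, where chance marks about 1 in 20; members share their libraries, so the groups are not independent.

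In control ZT6, replicate 2 stood apart for Rpl24 (607 CPM, others 170 to 212), Rpl36a (312 CPM, others 64.7 to 105), Rpl37a (668 CPM, others 124 to 178), Rpl38 (565 CPM, others 114 to 161), Rpl41 (1232 CPM, others 246 to 344), Rps27a (949 CPM, others 215 to 307), Rps4x (778 CPM, others 254 to 340) and Rpsa (78.6 CPM, others 21.2 to 28.9). This is the library with the highest summed member level of the 17.

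In control SD, replicate 4 stood apart for Rpl13 (512 CPM, others 251 to 271), Rpl13a (195 CPM, others 86.0 to 99.4), Rpl27a (367 CPM, others 123 to 162), Rpl30 (445 CPM, others 144 to 184), Rpl4 (930.5 CPM, others 513 to 574), Rpl5 (90.3 CPM, others 14.4 to 26.5) and Rpl8 (826 CPM, others 365 to 421). It did so too for Rplp2 (517 CPM, others 127 to 163), Rps9 (474 CPM, others 257 to 283), Rpsa (93.4 CPM, others 28.2 to 35.2) and Rps12l1 (203 CPM, others 0 to 13). In the same group, replicate 1 stood apart for Rpl10a (68.3 CPM, others 50.3 to 52.9) and replicate 3 for Rpl15 (202 CPM, others 159 to 163).

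In mutant SD, replicate 4 was high for Rpl13 (338 CPM, others 217 to 232), Rpl30 (258 CPM, others 162 to 168), Rps3a1 (580 CPM, others 406 to 420) and Rps12l1 (126 CPM, others 0 to 16.9) and low for Rps27a (166 CPM, others 307 to 334). Replicate 1 was high for Rps13 (114 CPM, others 86.3 to 87.8). Replicate 4 of control SD and replicate 4 of mutant SD are both of index set 3, in which the share of Rps12l1 in the pair with Rps12-ps3 was 50.7% to 100%. Over 50% of the counts of the Rpl5 and Rpl10a families stand on copies. Single members were tested on their own rows only. With copies summed, Rps13 stood at 124, 104, 102 and 86.3 CPM in mutant SD, and Rpl13 at 298, 220, 235 and 338 CPM. Rpl15 with its copies stood at 219, 208, 231 and 188 CPM in control SD. Rpl8 and Rps9 have no copies. Whether a library stands apart for a single member with its copies was not tested.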

How the results depend on the processing

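No paired analysis was possible because replicate numbers were given in accession order and each library is of another mouse. For the 8 comparisons of states and genotypes in 17 libraries, 0 members were called under each alternative run. Moves of a median were set against the SD of a library's median member level, 0.39. With all 22 libraries in 1 fit, the median was −0.87 for SD in mutant, −0.83 for SD by genotype and 0.41 for genotype at ZT6. Leaving out 1 library at a time moved it by more than that SD for SD in control (−0.27 to 0.42), SD by genotype (−0.64 to 0.063), ZT6 against ZT0 (0.12 to 0.77) and genotype at ZT6 (−0.42 to 0.19). It moved by less for SD in mutant (−0.28 to −0.16), SD over both genotypes (−0.25 to 0.11), genotype after SD (−0.52 to −0.16) and genotype over ZT6 and SD (−0.42 to −0.07). At ZT0 it gave 62 to 73 called members (40.6% to 45.8% of all genes called) and a median of 2.05 to 2.42.

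Index sets were less stable. Set 3 against 2 called 9 of 85 members (22.4% of all genes), 17 by DESeq2 (28.2%) and 5 over 2-fold (share of all genes not given). Leaving out 1 library gave medians of −0.11 to 0.38. The fewest calls were 5 without mutant ZT6 replicate 4 (14.4% of all genes), the most 40 without control ZT6 replicate 2 (30.1%). Set 1 against 2 called 1 member (18.3% of all genes), 4 by DESeq2 (24%), 2 with RLE factors (17.8%) and 2 with copies summed (18.1%). It called 5 with no filter (10.6%), 2 with scaling without the members (17.8%) and 0 over 2-fold (share of all genes not given). Leaving out 1 library gave 0 to 10 called members (9.1% to 24.6% of all genes), with medians of −0.31 to 0.14. Fits without a library hold fewer samples. The cause was otherwise not tested.

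Single members that changed sign in states or genotypes were not called, except Rps12l1 at ZT0. With copies summed, Rps12 was −0.10 for SD in mutant with and without index set as a covariate, −0.14 with it and −0.18 without it for SD over both genotypes, and Rpl10a was 0.20 for ZT6 against ZT0. With copies summed and index set as a covariate, Rps7 was −0.043 for SD in mutant and −0.045 for SD over both genotypes. With all 22 libraries, Rps7 was −0.44 and −0.13 in these comparisons, and at ZT6 between genotypes Rpl37 was 0.034 and Rpl18 0.47. Between sets 3 and 2, Rpl37 turned to 1.22 and Rpl14 to 0.37 with copies summed. At ZT0 Rps12l1 went from −6.365 (without mutant ZT0 replicate 1) to 14.1 (without control ZT0 replicate 3), fitted values of a gene at 0 counts in most of these libraries. Rps25 and the members under 1 CPM rest on few counts, which limits what could be detected.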
